A study of Mus musculus with 24 samples.

Results

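The ventral prostate of AKR mice was compared with that of 129X1 mice on 8 of the 24 arrays of the series, 4 arrays per strain, chosen by the strain given in the array titles. AKR is an inbred strain best known for a high rate of lymphoma and for the k haplotype of the H2 locus, the mouse major histocompatibility complex. 129X1 is an inbred substrain of the 129 family, from which many embryonic stem cell lines were made, and it carries the b haplotype. All animals of both groups were wild type, untreated, on a standard diet and 8 weeks old, and each array is labelled as a biological replicate of its strain. The other 16 arrays came from 4 further strains, SWR, FVB, BALB/c and C57BL/6, with 4 each, and were used to estimate the spread between arrays and to show on which side of the difference other strains lay. Total RNA was hybridised as biotin-labelled cRNA to Affymetrix mouse arrays, on which a probe set is a group of short probes for 1 transcript. According to the series title, expression in parental strains served to find modifiers of cancer, and this pair asks which transcripts differ between the AKR and 129X1 glands.

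The mouse prostate has several lobes, of which the ventral one is studied here. Its luminal cells secrete protease inhibitors, binding proteins and small androgen-driven proteins into the seminal fluid, basal cells lie beneath them, and smooth muscle and fibroblasts surround the ducts. A gland of this kind makes large amounts of secreted protein and depends on chaperones and disulfide isomerases in the endoplasmic reticulum, and prostate tissue is rich in zinc. Levels below are log2 of the intensity plus 16, so that 4 is the value of a probe set listed at 0. Differences are AKR minus 129X1 on that log2 scale with the standard error (SE) of the fit, and folds are their antilogs, which are compressed for faint transcripts. A gene was called when its two-sided limma p, adjusted over all 15775 tested probe sets by the method of Benjamini and Hochberg, was under 0.05. Each gene is represented by the probe set with the highest mean over all 24 arrays, and 9431 genes were tested.

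The tissue markers were present in both strains. Spink1, a secreted trypsin inhibitor typical of the ventral lobe, stood at 12.95 ± 0.26 (SD, n = 4) in AKR and 12.82 ± 0.35 (n = 4) in 129X1, and Msmb, a microseminoprotein, at 12.63 ± 0.52 and 12.26 ± 0.12. Krt18, a keratin of luminal cells, stood at 10.71 ± 0.04 and 10.62 ± 0.09. The seminal vesicle products that passed the filter were faint, with Svs3a at 5.64 ± 0.32 and 5.34 ± 0.23 and Svs5 at 5.81 ± 0.33 and 5.63 ± 0.08. Other cell types moved with the strain or with 1 array. The smooth muscle score, the mean log2 level of 13 genes centred on all 24 arrays, ran from -0.38 to 0.02 in AKR and from 0.16 to 0.56 in 129X1, and the summed intensity of those genes from 7762 to 10160 and from 10740 to 14380. The skeletal muscle score was 1.40 in 129X1 replicate 4 and between -0.06 and 0.28 on the other 7 arrays. In whole tissue, fewer cells of a type and less RNA per cell cannot be told apart. Log2 levels of arrays of the same strain correlated at 0.940 to 0.958 in AKR and 0.955 to 0.968 in 129X1, those of the different strains at 0.907 to 0.943, and each of the 8 arrays was closest to an array of its own strain.

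Promoter sequences are given here for 6 genes that were higher in AKR and belong to heat shock, metal and endoplasmic reticulum groups described below. Each holds the motif searched for its group, whereas others that were called higher in AKR, such as Bag3, Pdia4 and Edem1, had no match. The sequences are the 250 bases before the annotated start, from RefSeq on the mouse build GRCm38.p6, which is the sequence of C57BL/6J and not of either strain compared. Capitals mark every match on either strand. For the genes of heat shock proteins the motif is GAANNTTC, the core of the heat shock element, which was found in 6.69% of the 32851 promoter windows searched. The Hspa1b window lies at chr17:34959239-34959488 on the minus strand and the Hspa1a window at chr17:34972157-34972406 on the minus strand. They were identical at 247 of 250 bases, and each held 1 match that began 104 bases before the start.
Hspa1b: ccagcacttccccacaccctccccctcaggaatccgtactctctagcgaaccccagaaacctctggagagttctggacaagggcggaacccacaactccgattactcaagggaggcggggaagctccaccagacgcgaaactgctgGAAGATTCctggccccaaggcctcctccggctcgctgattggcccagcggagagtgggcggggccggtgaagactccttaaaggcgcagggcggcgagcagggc
Hspa1a: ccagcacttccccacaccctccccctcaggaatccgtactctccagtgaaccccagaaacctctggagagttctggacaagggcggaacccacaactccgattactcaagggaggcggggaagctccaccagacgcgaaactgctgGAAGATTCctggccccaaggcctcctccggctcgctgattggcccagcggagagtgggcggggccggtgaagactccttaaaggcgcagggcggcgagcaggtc
For metallothioneins the motif searched was TGCNCNC, a loose pattern for the core of the metal response element in which each N may be any base. It was found in 44.4% of all windows and so is common, and a match need not be a metal response element. The Mt2 window, at chr8:94172368-94172617 on the plus strand, held 5 matches, and the Mt1 window, at chr8:94178839-94179088 on the plus strand, held 1.
Mt2: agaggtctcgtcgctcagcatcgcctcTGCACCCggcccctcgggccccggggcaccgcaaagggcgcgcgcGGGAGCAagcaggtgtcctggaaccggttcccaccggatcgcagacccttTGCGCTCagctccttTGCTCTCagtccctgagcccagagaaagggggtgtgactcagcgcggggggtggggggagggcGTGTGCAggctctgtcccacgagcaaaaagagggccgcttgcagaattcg
Mt1: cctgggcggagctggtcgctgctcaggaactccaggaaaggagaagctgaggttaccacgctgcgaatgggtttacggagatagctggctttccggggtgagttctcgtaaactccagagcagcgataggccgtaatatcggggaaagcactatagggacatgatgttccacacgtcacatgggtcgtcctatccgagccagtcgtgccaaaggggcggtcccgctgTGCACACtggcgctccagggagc
For genes of the endoplasmic reticulum the motif is CCAAT and CCACG separated by 9 bases, the endoplasmic reticulum stress element, which was found in 0.113% of all windows (37). The Pdia6 window lies at chr12:17266339-17266588 on the plus strand and the Creld2 window at chr15:88819396-88819645 on the plus strand. Their single matches began 98 and 126 bases before the start, that of Creld2 on the opposite strand.
Pdia6: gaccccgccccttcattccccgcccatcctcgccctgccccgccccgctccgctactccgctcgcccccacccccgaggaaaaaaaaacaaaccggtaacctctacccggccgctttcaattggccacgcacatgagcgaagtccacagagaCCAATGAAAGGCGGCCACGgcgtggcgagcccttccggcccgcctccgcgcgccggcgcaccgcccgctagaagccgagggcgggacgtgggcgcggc
Creld2: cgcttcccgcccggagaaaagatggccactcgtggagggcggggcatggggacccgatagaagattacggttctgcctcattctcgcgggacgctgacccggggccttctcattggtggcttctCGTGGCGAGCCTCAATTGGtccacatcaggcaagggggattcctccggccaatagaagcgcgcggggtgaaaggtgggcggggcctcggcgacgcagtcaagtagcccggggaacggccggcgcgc
A match is a description of these letters and not evidence that a factor binds there.

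Over the whole table, 1795 of 15775 probe sets (11.4%) were called between AKR and 129X1. Of these, 800 (5.07%) were higher in AKR and 995 (6.31%) higher in 129X1. A difference of at least 2-fold was called for 304 probe sets (1.93%), 138 higher in AKR and 166 in 129X1, and one of at least 4-fold for 40, 21 and 19 in the respective directions. Counted as genes, 1063 of 9431 (11.3%) were called, 484 (5.13%) higher in AKR and 579 (6.14%) in 129X1, and 151 (1.6%) by at least 2-fold, 61 and 90. The 4 AKR and 4 129X1 arrays did not overlap for 1515 genes (16.1%), of which 890 were called. The median difference over all genes was 0.02. The counts of called genes in the groups below are to be read beside these shares over all genes. Members of the groups were chosen with earlier results of these data known, so their counts do not stand for whole pathways. The groups of genes described below hold 123 called genes, of which the 70 with an adjusted p under 0.01 were all called whichever single array was left out, whereas 50 of the 53 with an adjusted p of 0.01 or more lost their call with at least 1 array left out. Of the 151 genes called at 2-fold or more, 46 had more than 1 tested probe set. In 24 of them every probe set was called in the same direction, and in H2-D1 and Rbm39 probe sets were called in opposite directions. Probe sequences were not used here, so an effect of strain variants beneath the probes was not tested.

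**Figure D1:**
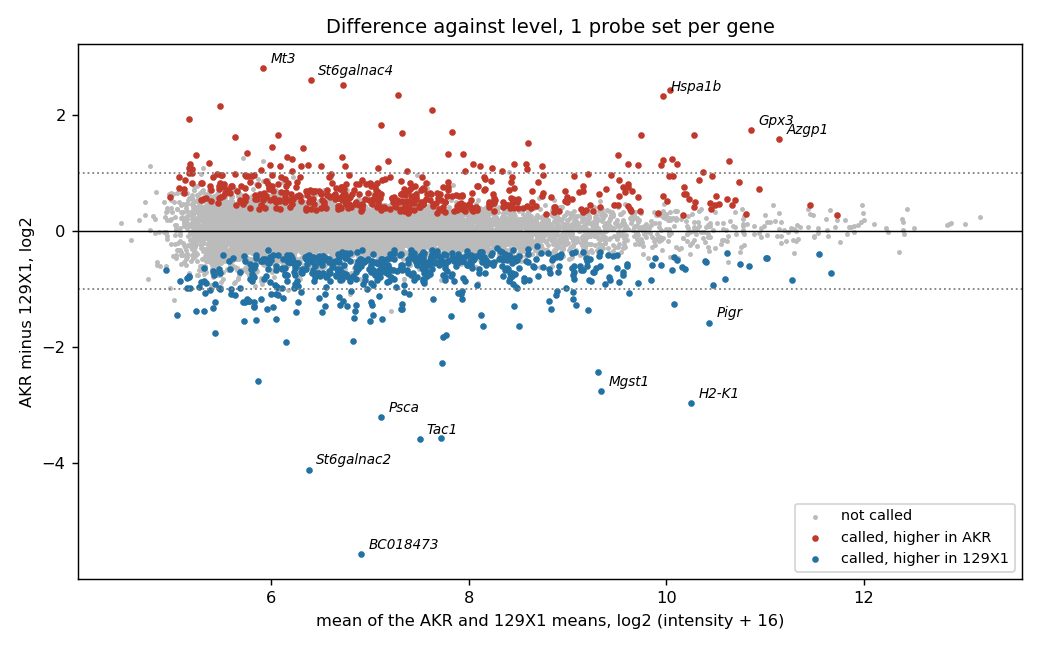
Each point is 1 of 9431 genes, with the mean of the AKR and 129X1 levels on the x axis and the AKR minus 129X1 difference on the y axis, both in log2 (intensity + 16) units; dotted lines mark 2-fold. Grey genes were not called; 484 called genes lie above 0 and 579 below, and the farthest below is BC018473 at -5.57.

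The largest differences toward 129X1 were in transcripts that AKR barely showed. BC018473, a long noncoding RNA in RefSeq, read 4.08, 4.06, 4.08 and 4.30 in AKR replicates 1 to 4 and 9.46, 9.87, 9.75 and 9.71 in 129X1 (difference -5.57, SE 0.12, 47.4-fold, adjusted p = 6.6e-20). St6galnac2, which adds sialic acid to the base of mucin-type O-glycans, read 4.30, 4.31, 4.44 and 4.23 against 8.56, 8.15, 8.42 and 8.59 (difference -4.11, SE 0.10, 17.2-fold, adjusted p = 4.9e-19). AKR lay at or near the value of a probe set listed at 0 for both, as did the other 4 strains, whose means were 4.13 to 4.23 for BC018473 and 4.19 to 4.34 for St6galnac2. These folds depend on the constant added before the log, and became 349 and 67.0 with 1 in its place, and 13.4 and 5.78 with 64.

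Tac1 encodes the precursor of substance P and neurokinin A, peptides that act on smooth muscle, vessels and immune cells. It read 5.92, 5.39, 5.78 and 5.71 in AKR and 9.10, 9.37, 9.44 and 9.27 in 129X1 (difference -3.59, SE 0.17, 12.1-fold, adjusted p = 4.1e-13). SWR (10.13) and BALB/c (10.44) were above 129X1, FVB (8.33) stood below it, and C57BL/6 (6.50) was the strain nearest to AKR. Gdpd3, a lysophospholipase D, read 6.06, 5.99, 5.53 and 6.18 against 9.31, 9.51, 9.43 and 9.76 (difference -3.57, SE 0.20, 11.8-fold, adjusted p = 5.5e-12). Here FVB (9.21) lay with 129X1, and SWR, BALB/c and C57BL/6 (5.55 to 6.14) lay with AKR.

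Psca, prostate stem cell antigen, is a small membrane-anchored protein of the Ly6 family that prostate tumours often carry. It read 6.45, 4.96, 5.18 and 5.46 in AKR and 8.48, 8.41, 8.66 and 9.33 in 129X1 (difference -3.21, SE 0.29, 9.25-fold, adjusted p = 3.9e-08). The strains did not overlap, although AKR replicate 1 was more than 1 log2 unit above the lowest AKR array. Mgst1, a membrane-bound glutathione transferase, read 8.21, 8.26, 7.82 and 7.56 against 10.45, 10.99, 10.83 and 10.60 (difference -2.76, SE 0.18, 6.77-fold, adjusted p = 1.7e-10). Cited1, a transcriptional coactivator, was near the lower end of the scale in AKR (4.43 to 4.69) and spread from 6.34 to 7.68 in 129X1 (difference -2.58, SE 0.34, adjusted p = 1.2e-05), and its fold of 5.96 became 2.68 with a constant of 64 and 14.4 with 1. SWR (10.50) and FVB (10.82) lay with 129X1 for Mgst1, while BALB/c (7.99) and C57BL/6 (7.22) lay with AKR.

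Apart from the class I genes, the remaining genes among the 15 with the largest differences toward 129X1 lay between -2.28 and -1.76. Cap1, which recycles actin monomers, was lower in AKR at both of its probe sets (difference -2.28, SE 0.12, adjusted p = 2.3e-12), as was Phf20, a chromatin reader, at all 4 of its own (-1.83, SE 0.16, adjusted p = 2.4e-08). Ablim1, an actin-binding protein, and Blvrb, a biliverdin reductase, differed by -1.90 and -1.76 and had 1 probe set each. Rbm39, a splicing factor, differed by -1.79 at its brightest probe set. Of its 9 probe sets, 4 were called higher in 129X1 and 1 higher in AKR, and 4 were not called. Fxyd1, a regulator of the sodium pump that is abundant in muscle, read 4.79, 6.42, 5.05 and 4.53 in AKR and 6.90, 7.25, 6.92 and 7.34 in 129X1 (difference -1.91, adjusted p = 0.00052), and it was not called once the smooth muscle score of each array was in the fit (adjusted p = 0.07).

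**Figure D2:**
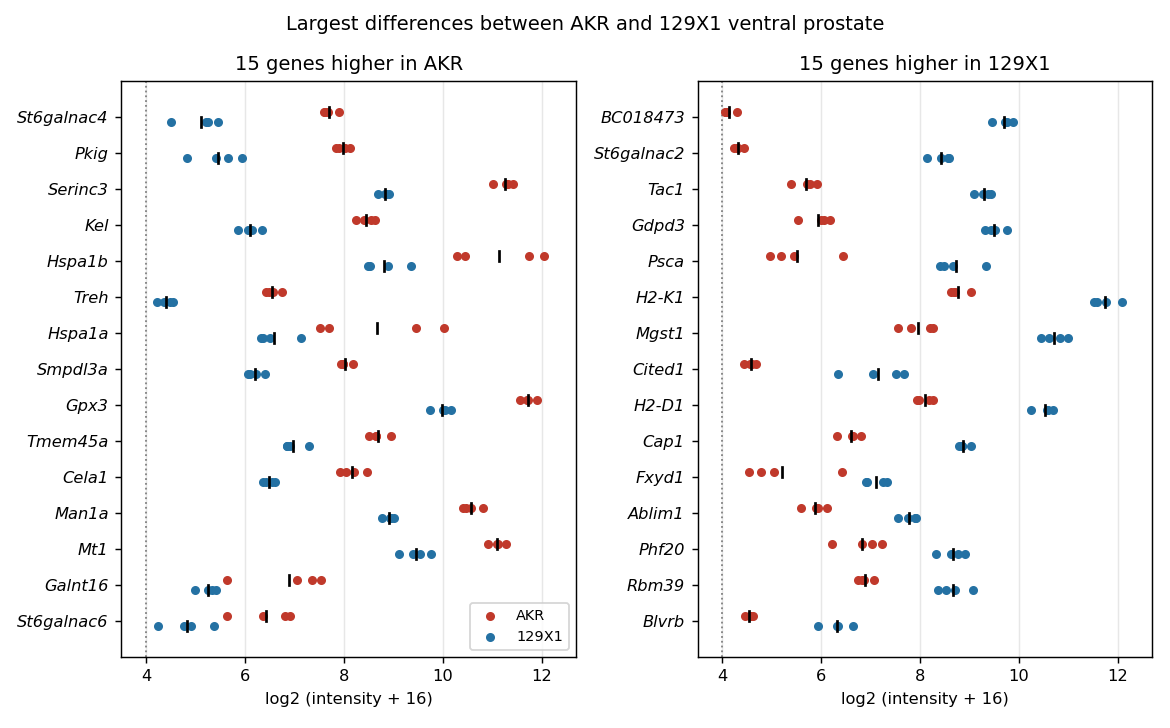
Points are log2 (intensity + 16) on each of the 4 AKR (red) and 4 129X1 (blue) arrays, and black bars are strain means, for the 15 called genes with the largest difference in each direction; the dotted line at 4 is the value of an intensity of 0. The strains do not overlap in any of the 30 genes, since that was required of them; BC018473 and St6galnac2 sit near the dotted line in AKR, and Hspa1b and Hspa1a are spread widely within AKR.

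Toward AKR, sialyltransferases were again among the genes with the largest differences. St6galnac4, which adds sialic acid to sialylated O-glycans, read 7.91, 7.62, 7.67 and 7.60 in AKR and 5.45, 5.26, 4.51 and 5.22 in 129X1 (difference 2.59, SE 0.16, 6.02-fold, adjusted p = 6.1e-11), and both of its probe sets were called. Its fold was 3.08 with a constant of 64 before the log, below the 4.97 of Serinc3, and 10.4 with a constant of 1, below the 13.2 of Treh. St6galnac6, which acts mainly on glycolipids, read 6.80, 6.91, 6.37 and 5.64 against 4.91, 4.76, 5.38 and 4.24 (difference 1.61, SE 0.27, 3.05-fold, adjusted p = 0.00021). AKR replicate 4 lay only slightly above the highest 129X1 array. AKR stood highest of the 6 strains for both genes, the others lying between 5.09 and 6.63 for St6galnac4 and between 4.69 and 5.35 for St6galnac6.

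Pkig, an inhibitor of cyclic AMP-dependent protein kinase, read 7.91, 8.02, 7.85 and 8.13 in AKR and 4.83, 5.65, 5.95 and 5.41 in 129X1 (difference 2.52, SE 0.17, 5.74-fold, adjusted p = 3e-10). Serinc3, a membrane protein whose human form reduces the infectivity of retrovirus particles, read 11.27, 11.33, 11.02 and 11.42 against 8.84, 8.85, 8.70 and 8.92 (difference 2.43, SE 0.13, 5.39-fold, adjusted p = 5.5e-12). For Serinc3 it was 129X1 that stood away from the other strains, since SWR, FVB, BALB/c and C57BL/6 had means of 11.23 to 11.49, close to AKR. Treh, the enzyme that splits trehalose, had a like order, where 129X1 stood at 4.41 ± 0.14 and the other 5 strains had means of 6.06 to 6.56 (AKR minus 129X1 2.15, SE 0.13, adjusted p = 2.4e-11), and its fold of 4.44 became 2.05 with a constant of 64 and 13.2 with 1. Kel, the Kell blood group endopeptidase, stood at 8.45 ± 0.17 in AKR and 6.11 ± 0.21 in 129X1 (difference 2.34, SE 0.15, adjusted p = 7e-11).

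Gpx3, a secreted selenium peroxidase, was among the brightest transcripts that differed. It read 11.57, 11.72, 11.70 and 11.90 in AKR and 9.75, 10.16, 10.01 and 10.05 in 129X1 (difference 1.73, SE 0.16, 3.32-fold, adjusted p = 6.4e-08). The strains were far apart for this gene in general, from 9.12 in C57BL/6 to 12.63 in BALB/c. Smpdl3a, a phosphodiesterase related to acid sphingomyelinase, differed by 1.82 (SE 0.14), Tmem45a, a transmembrane protein, by 1.71 (SE 0.15), Cela1, an elastase, by 1.68 (SE 0.13) and Man1a, a Golgi mannosidase that trims N-glycans, by 1.65 (SE 0.13), with adjusted p values of 2e-08 or less. Galnt16, which starts O-glycans, read 7.35, 7.06, 7.54 and 5.63 in AKR and 4.99, 5.25, 5.41 and 5.33 in 129X1 (difference 1.65, SE 0.38, adjusted p = 0.0051), and AKR replicate 4 was close to 129X1.

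Several of these genes are neighbours on the chromosome. In the gene order of GRCm38.p6, 9399 pairs of tested genes were next to each other, and in 11 pairs both genes were called at 2-fold or more, always in the same direction. They formed 9 runs that held 20 of the 151 genes, and 2 runs had 3 genes. Cygb, St6galnac2 and BC018473 were all higher in 129X1, Cygb, a globin of fibroblasts, standing at 6.12 ± 0.22 in AKR and 7.33 ± 0.33 in 129X1 (difference -1.21, SE 0.18, adjusted p = 7.3e-05). Mt3, Mt2 and Mt1 were all higher in AKR. The pairs Serinc3 and Pkig, St6galnac4 and St6galnac6, and Hspa1b and Hspa1a were higher in AKR, and Rbm39 and Phf20 higher in 129X1. The other 3 pairs, named here after their values were seen, were Trpv6 and Kel in AKR and Moxd1 and Ccn2, and Mgst1 and Pik3c2g, in 129X1.

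The other 4 strains placed these differences in context. For the 90 genes at least 2-fold higher in 129X1, all 4 other strains were on the AKR side of the midpoint between AKR and 129X1 for 18 genes, and none was for 10. For the 61 genes at least 2-fold higher in AKR, all 4 were on the AKR side for 11 and none for 9. The remaining genes were divided among the strains. Strain means alone were used for these counts, with no test.

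Class I molecules of the major histocompatibility complex present peptides from inside the cell to CD8 T cells, and the classical heavy chains of mice are among the most variable genes between H2 haplotypes. H2-K1 read 8.63, 8.71, 9.03 and 8.69 in AKR and 11.76, 11.52, 12.09 and 11.57 in 129X1 (difference -2.97, SE 0.15, 7.83-fold, adjusted p = 2e-12), and all 4 of its probe sets were higher in 129X1, by 1.73-fold to 11.3-fold. H2-D1 read 8.27, 8.18, 7.94 and 7.97 against 10.69, 10.25, 10.56 and 10.58 at its brightest probe set (difference -2.43, SE 0.15, 5.39-fold, adjusted p = 3.3e-11). AKR was the lowest of the 6 strains at both, the others lying between 10.67 and 11.74 for H2-K1 and between 9.82 and 10.99 for H2-D1. The 8 probe sets of H2-D1 did not give the same answer, because 4 were higher in 129X1, 3 higher in AKR and 1 was not called. They ranged from 4.38 ± 0.12 in AKR against 8.15 ± 0.30 in 129X1 (13.6-fold toward 129X1, adjusted p = 7.9e-12) to 9.30 ± 0.16 against 5.09 ± 0.40 (18.5-fold toward AKR, adjusted p = 1.1e-13). The direction for H2-D1 therefore depended on the probe set, and the probe sets of such closely related genes may share transcripts.

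**Figure D3:**
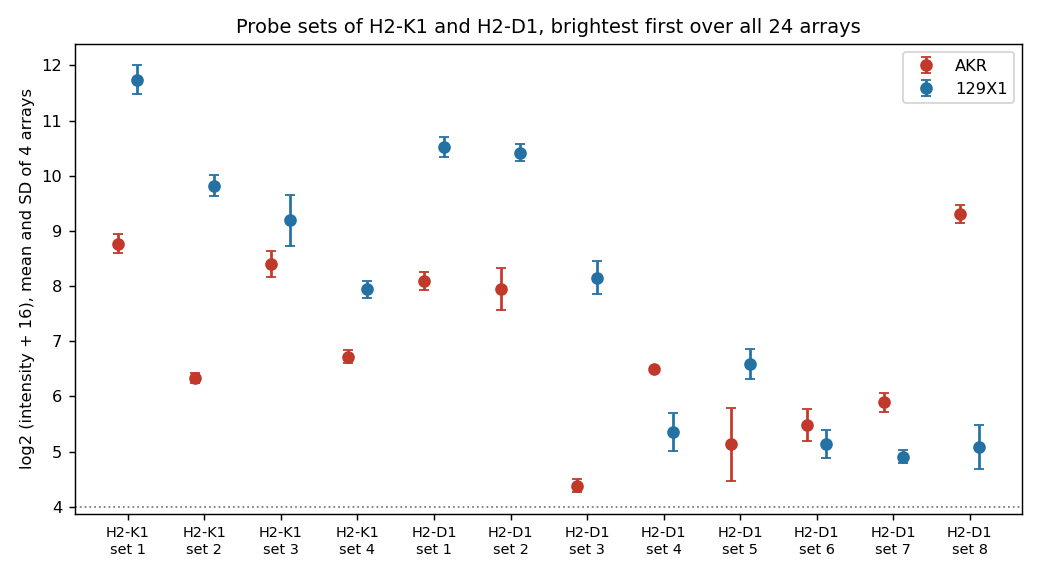
Mean log2 (intensity + 16) with SD over 4 arrays is shown for AKR (red) and 129X1 (blue) at each tested probe set of H2-K1 (4) and H2-D1 (8), brightest first over all 24 arrays. All H2-K1 probe sets are lower in AKR, while those of H2-D1 run from 8.15 against 4.38 in favour of 129X1 to 9.30 against 5.09 in favour of AKR.

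Of the 5 measured heavy chains, H2-K1 and H2-D1 were the 2 called, and the median difference was -0.25 against 0.02 over all genes. Of the 9 genes of the light chain and of peptide cutting and loading, 1 was higher in each strain, with a median of -0.08. B2m, the light chain, stood at 12.20 ± 0.29 in AKR and 11.76 ± 0.29 in 129X1 and was not called (adjusted p = 0.093). Tap2, a subunit of the peptide transporter, was 0.58 higher in AKR (SE 0.13, adjusted p = 0.0054) and Psme1, a proteasome activator, 0.73 lower (difference -0.73, SE 0.13, adjusted p = 0.00052). Of 25 measured interferon-induced genes and their regulators, 2 were called, both higher in 129X1, which is near the background share. They were Rsad2, a viral inhibitor (difference -0.85, SE 0.19, adjusted p = 0.0054), and Ifi35 (difference -0.67, SE 0.20, adjusted p = 0.027), and neither was called when only the 8 arrays were fitted. The strains overlapped in both genes. Counts with 1 array left out ranged from 1, without AKR replicate 1, 3 or 4 or 129X1 replicate 1 or 2, up to 3. Gbp2b, an interferon-induced gene described below, was counted in another group.

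Class II molecules present peptides taken up from outside, chiefly on macrophages, dendritic cells and B cells. H2-Aa, the alpha chain of the A molecule, read 7.56, 7.34, 7.74 and 8.15 in AKR and 9.16, 9.09, 9.67 and 9.37 in 129X1 (difference -1.63, SE 0.18, 3.09-fold, adjusted p = 8.3e-07), and 1 of its 2 probe sets was called. Cd74, the invariant chain, differed by -0.78 (SE 0.16, adjusted p = 0.0021) and H2-Eb1 by -0.55 (SE 0.14, adjusted p = 0.012), so that 3 of 9 measured genes were higher in 129X1, none was higher in AKR, and the median was -0.26. The brightest probe set of H2-Ab1 was not called (6.93 ± 0.27 against 7.75 ± 0.64, adjusted p = 0.079), while its other 2 were called higher in 129X1. Of 12 macrophage genes only Cd14, a receptor for bacterial lipopolysaccharide, was called (-0.65, SE 0.13, adjusted p = 0.0013), and the macrophage median was -0.02. None of 8 lymphocyte genes was called by limma, with 2 at an unadjusted p under 0.05.

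Metallothioneins are small cysteine-rich proteins that bind zinc and copper. Mt1 read 11.11, 10.92, 11.09 and 11.28 in AKR and 9.55, 9.76, 9.39 and 9.11 in 129X1 (difference 1.65, SE 0.14, 3.13-fold, adjusted p = 1.7e-08). Mt2 read 10.50, 10.40, 10.34 and 10.77 against 9.17, 9.66, 9.12 and 9.55 (difference 1.13, SE 0.13, 2.19-fold, adjusted p = 2e-06). 129X1 was the lowest of the 6 strains for both, the other 4 having means of 11.22 to 12.07 for Mt1 and 10.57 to 11.85 for Mt2. Mt3, best known from brain, read 4.75, 8.15, 8.36 and 8.01 in AKR and 4.33, 4.94, 4.42 and 4.38 in 129X1 (difference 2.80, SE 0.49, 6.96-fold, adjusted p = 0.00039). AKR replicate 1 lay within the 129X1 range for Mt3, and without it the difference was 3.65 (adjusted p = 3.7e-10). A fainter probe set of Mt1 was not called (5.25 ± 0.20 against 5.08 ± 0.64).

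Of 18 measured genes of metal handling, 5 were higher in AKR and 1 in 129X1, with a median difference of 0.16. Slc39a8, a zinc and manganese importer, read 9.06, 8.95, 8.54 and 8.53 in AKR and 7.81, 8.08, 7.75 and 7.11 in 129X1 (difference 1.08, SE 0.18, adjusted p = 0.00022). Slc39a4, the intestinal zinc importer, was 0.98 higher in AKR (SE 0.32, adjusted p = 0.049), its 129X1 arrays were spread from 4.92 to 6.72, and without 129X1 replicate 1 the difference was 0.58 (adjusted p = 0.21). Slc39a6, a zinc importer regulated by oestrogen in human breast cells, was lower in AKR (-0.64, SE 0.17, adjusted p = 0.013). Slc30a2, which moves zinc into vesicles, read 4.29, 6.56, 6.81 and 6.30 in AKR and 4.83 to 5.72 in 129X1 and was not called. AKR replicate 1 was again the low array. Mtf1, the factor that senses zinc, differed by 0.08. The loose metal response pattern shown above was found in 11 of the 14 listed genes with a promoter in the table. These included all 4 called genes that had one. Of all genes with a promoter, 47.2% held the pattern.

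The heat shock genes that were called were higher in AKR, and unevenly so among its arrays. Hspa1b, an inducible Hsp70 that binds unfolded proteins, read 10.29, 11.75, 12.04 and 10.45 in AKR and 8.90, 8.52, 8.48 and 9.36 in 129X1 (difference 2.32, SE 0.38, 4.99-fold, adjusted p = 0.00017). Its near-identical neighbour Hspa1a read 7.52, 10.02, 9.45 and 7.69 against 6.50, 6.36, 6.33 and 7.13 (difference 2.09, SE 0.41, 4.26-fold, adjusted p = 0.0012). AKR replicates 2 and 3 were higher than replicates 1 and 4 in both, and since the genes are so alike their probe sets may not tell them apart. AKR had the highest mean of the 6 strains for both genes, the others lying between 7.74 and 9.02 for Hspa1b and between 5.75 and 6.58 for Hspa1a.

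Other chaperones of the same response followed in part. Dnaja1, a co-chaperone of Hsp70, read 8.96, 9.81, 10.01 and 9.37 in AKR and 9.07, 8.74, 8.85 and 8.38 in 129X1 (difference 0.77, SE 0.20, adjusted p = 0.014), with AKR replicate 1 inside the 129X1 range. Bag3, which hands Hsp70 clients to autophagy, was higher on all 4 AKR arrays (7.63 to 8.09) than on any 129X1 array (7.09 to 7.27), a difference of 0.73 (SE 0.12, adjusted p = 0.00027). Hsp90aa1, the inducible Hsp90, differed by 0.59 (SE 0.16, adjusted p = 0.014). Hsph1, a relative of Hsp70, stood at 7.95 ± 1.06 and 6.99 ± 0.29 and was not called (adjusted p = 0.083). In all, 5 of 21 measured genes were higher in AKR and none in 129X1, and the median difference was 0.36. By role, 4 of 10 inducible chaperones (median 0.57) and 1 of 11 constitutive ones (median -0.04) were called.

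The heat shock count depended on single arrays. It was 11 without AKR replicate 1, 8 with a constant of 64 before the log, and 3 without AKR replicate 3, without 129X1 replicate 4, with only the 8 arrays in the fit, or with the smooth muscle score in the fit. The heat shock score was 0.12, 0.62, 0.71 and 0.20 in AKR replicates 1 to 4 and between -0.10 and 0.09 in 129X1. The heat shock core was found in the promoter of 7 of 17 listed genes, 3 of the 4 called ones that had a promoter among them, beside 7.73% of all genes with a promoter. Those 3 include Hspa1b and Hspa1a, whose windows are nearly identical.

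Proteins bound for secretion are folded in the endoplasmic reticulum. Of 46 measured genes of this machinery, 12 were higher in AKR and 3 in 129X1, with a median difference of 0.28. The disulfide isomerases, which form and rearrange disulfide bonds, held the largest differences. Pdia6 read 10.67, 11.60, 11.54 and 11.13 in AKR and 9.83, 10.07, 10.19 and 10.02 in 129X1 (difference 1.21, SE 0.16, 2.31-fold, adjusted p = 1.2e-05), and both of its probe sets were called. Pdia4 read 8.29, 8.32, 8.66 and 8.57 against 7.28, 7.04, 7.51 and 6.69 (difference 1.33, SE 0.16, 2.52-fold, adjusted p = 4.3e-06), and 1 of its 2 probe sets was called. The strains did not overlap in either gene. Agr2, a mucosal isomerase needed for mucin folding, differed by 0.94 (SE 0.17, adjusted p = 0.00039) and Pdia3 by 0.41 (SE 0.12, adjusted p = 0.027). Ero1b, an oxidase of these enzymes, was lower in AKR at its brightest probe set (-0.74, SE 0.15, adjusted p = 0.0023). Its other probe sets differed by 0.17 and 0.04 and were not called.

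Genes that dispose of misfolded proteins also differed, in both directions. Edem1, which marks misfolded glycoproteins for disposal, was higher in AKR at both probe sets (0.96, SE 0.16, adjusted p = 0.00027), and Sel1l, part of the disposal complex, by 0.48 (SE 0.11, adjusted p = 0.0042). Derl1, a channel of the same route, was lower in AKR at its brightest probe set (-0.37, SE 0.11, adjusted p = 0.026). Its other probe sets differed by 0.21, -0.20 and -0.12 and were not called. Sec61b, a subunit of the translocation channel, was lower in AKR (-0.62, SE 0.11, adjusted p = 0.00058), while Surf4, Sec24d and Ssr3, which act in cargo export and translocation, were 0.45, 0.37 and 0.31 higher. Among the chaperones, Sdf2l1 and Creld2 were 0.86 and 0.67 higher in AKR. Hspa5, the chief chaperone of the compartment, was at 11.90 ± 0.29 in AKR and 11.84 ± 0.35 in 129X1 and was not called, and neither was Hsp90b1 (10.15 ± 0.16 and 9.80 ± 0.24). Of the regulators, Atf4 was 0.58 higher in AKR (SE 0.18, adjusted p = 0.043). The stress element shown above for Pdia6 and Creld2 was found in 10 of 39 listed genes with a promoter, beside 0.13% of all genes with a promoter. Of the 14 called listed genes with a promoter 3 held it, the third being Ero1b, which was lower in AKR at its brightest probe set. The called genes thus held it no more often than the listed genes as a whole, and these shares were not tested.

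The count of 12 fell to 7 when only the 8 arrays were fitted, to 6 without AKR replicate 3, AKR replicate 4 or 129X1 replicate 1, and to 3 with the smooth muscle score in the fit. Pdia4, Pdia6 and Edem1 were called under all 20 alternatives. Creld2 lost its call in 9 of them. Whether the cell makeup of the samples has a part in these counts was not tested beyond that covariate.

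**Figure D4:**
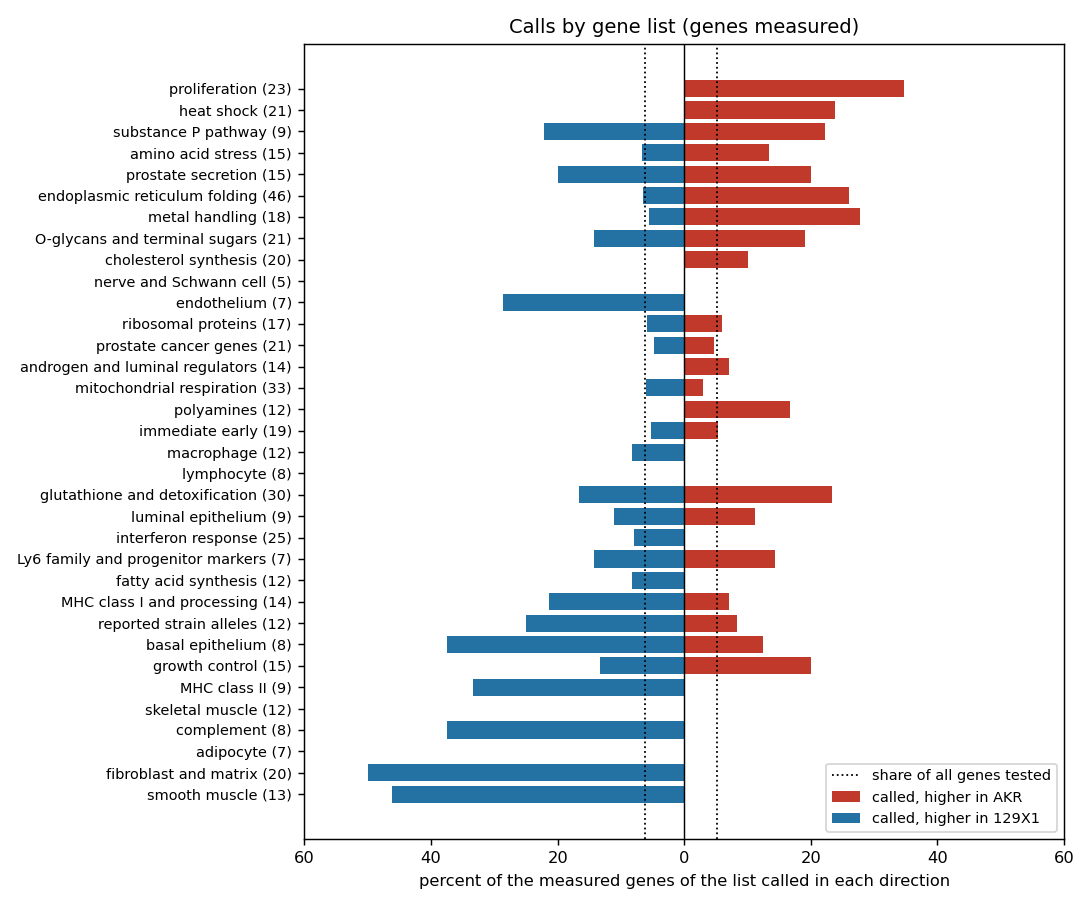
Bars give the percent of the measured genes of each list called higher in AKR (red, right) and higher in 129X1 (blue, left), with the number measured in brackets, for lists with at least 5 measured genes in order of their median difference. Dotted lines are the shares over all 9431 genes, 5.13% and 6.14%; fibroblast and smooth muscle genes reach the farthest to the left and proliferation genes the farthest to the right.

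Secreted products and luminal genes differed one by one. Azgp1, a zinc-binding glycoprotein of seminal fluid, read 11.72, 11.76, 12.11 and 12.13 in AKR and 10.25, 10.28, 10.32 and 10.55 in 129X1 (difference 1.58, SE 0.13, 2.99-fold, adjusted p = 8.7e-09). Pigr, which carries polymeric immunoglobulin across epithelia, read 9.84, 9.62, 9.56 and 9.54 against 11.33, 11.38, 11.46 and 10.70 (difference -1.58, SE 0.18, 2.99-fold, adjusted p = 2e-06). The strains did not overlap in either gene, and the size was the same in opposite directions. Of 15 measured secretory genes 3 were higher in each strain, the others toward AKR being Mme and Agr2 and those toward 129X1 Clu, a secreted chaperone (-0.47, SE 0.15, adjusted p = 0.038, 1 of 4 probe sets called), and B4galnt2, a glycosyltransferase (-0.75, SE 0.15, adjusted p = 0.0011). Without AKR replicate 1 the count toward AKR was 5. Pbsn, the androgen-driven probasin, read 9.84, 12.05, 12.50 and 11.99 in AKR and 10.87 to 11.56 in 129X1, so AKR replicate 1 lay below every 129X1 array and the other AKR arrays above, and it was not called.

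Of 14 regulators of androgen response and luminal identity, 1 was called. Tmprss2, an androgen-driven membrane protease, stood between 9.77 and 10.08 in AKR and between 9.12 and 9.29 in 129X1 (difference 0.76, SE 0.17, adjusted p = 0.0033). It was not called with the smooth muscle score in the fit. The count was 2 without AKR replicate 1, AKR replicate 3 or 129X1 replicate 3 or after quantile normalization, and 3 with a constant of 64, with the 60th percentile as the filter or with an intensity trend. Foxa1 (10.31 ± 0.15 and 10.43 ± 0.08) and Hoxb13 (10.13 ± 0.15 and 9.81 ± 0.19), transcription factors of the luminal prostate, were not called. Of 9 luminal genes, Psca was higher in 129X1 and Cldn4, a tight junction protein, higher in AKR (0.65, SE 0.18, adjusted p = 0.022). The other 7 were not called, and the median was -0.06. The luminal score lay between -0.21 and 0.01 in AKR and between 0.16 and 0.29 in 129X1, but without Psca, left out after its values were seen, it lay between -0.12 and 0.02 and between -0.07 and -0.01, so that the strains overlapped.

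Genes of the stroma that were called were higher in 129X1. Of 13 measured smooth muscle genes, 6 were higher in 129X1 and none in AKR, with a median difference of -0.61, and 10 had an unadjusted p under 0.05. Acta2, smooth muscle actin, read 11.34, 11.52, 11.26 and 11.13 in AKR and 11.74, 12.12, 12.28 and 12.00 in 129X1 (difference -0.72, SE 0.15, 1.65-fold, adjusted p = 0.002). Myh11, its myosin heavy chain (-0.71), Tpm1, a tropomyosin (-0.64, with all 3 probe sets called), Tagln (-0.61), Cnn1 (-0.61) and Myl9 (-0.50), which bind actin or form part of myosin, were the others called. The count was 2 without AKR replicate 4, and 3 without AKR replicate 3, 129X1 replicate 2 or 129X1 replicate 4. Since the score with which the smooth muscle covariate was built consists of these genes, their count of 0 in that fit carries no information about them.

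Of 20 fibroblast and matrix genes, 10 were higher in 129X1 and none in AKR, with a median of -0.57. Dcn, a proteoglycan that binds collagen, read 9.97, 10.41, 10.24 and 10.13 in AKR and 10.92, 11.11, 10.87 and 11.11 in 129X1 (difference -0.82, SE 0.12, 1.76-fold, adjusted p = 6.3e-05). Gsn, which cuts actin filaments, stood between 10.75 and 10.91 in AKR and between 11.61 and 11.75 in 129X1 (-0.84, SE 0.11, adjusted p = 1.8e-05). Timp3, an inhibitor of matrix metalloproteases (-1.18, SE 0.19, adjusted p = 0.00014), and Pdgfra, a growth factor receptor of fibroblasts (-1.27, SE 0.28, adjusted p = 0.0033), differed by more than 2-fold. Col6a1, Postn, Sparc, Mfap5, Dpt and Igf1 differed by -0.88 to -0.55. The fibroblast score was between -0.35 and -0.19 in AKR and between -0.01 and 0.38 in 129X1, with summed intensities of 7483 to 8309 and 10720 to 12990. With the smooth muscle score in the fit 3 of the 10 were called, and Dcn, Gsn and Timp3 were called under every alternative in which they were tested.

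Genes of basal cells, the layer under the luminal cells, were called in both directions. The median over 8 genes was -0.18, and the basal score overlapped (-0.12 to 0.36 in AKR, 0.31 to 0.38 in 129X1). Of these genes, 3 keratins were higher in 129X1, Krt15 (-0.92, SE 0.19, adjusted p = 0.0021), Krt5 (-0.66, SE 0.15, adjusted p = 0.0041) and Krt14 (-0.61, SE 0.19, adjusted p = 0.037). Dst, a linker of the cell's anchoring plaques, was higher in AKR at its brightest probe set (0.73, SE 0.13, adjusted p = 0.00056), but of its 4 probe sets 2 were called toward AKR and 1 toward 129X1. Trp63, the transcription factor that defines these cells, stood at 6.04 ± 0.26 and 6.24 ± 0.11 and was not called. With the smooth muscle score in the fit the count toward 129X1 was 1. Of 7 endothelial genes, Tek, an angiopoietin receptor (-0.65), and Emcn, a surface glycoprotein (-0.52), were higher in 129X1. At their brightest probe sets Flt1, Eng, Pecam1 and Cdh5 differed by 0.61, 0.30, 0.17 and 0.13 and Kdr by -0.11 without being called. A fainter probe set of Cdh5 was called higher in AKR (0.63, SE 0.18, adjusted p = 0.029), although the strains overlapped. The endothelium median was 0.13, and its scores overlapped (-0.13 to 0.18 in AKR, -0.20 to 0.19 in 129X1). Neither Tek nor Emcn was called with that covariate. Neither was called with the 60th percentile as the filter on dim probe sets, where a gene removed by the filter also counts as not called.

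None of 7 adipocyte genes was called by limma, and none had an unadjusted p under 0.05, although the median was -0.53 and the adipocyte score lay between -0.94 and -0.35 in AKR and between -0.42 and 0.25 in 129X1. None of 12 skeletal muscle genes was called, with 2 at an unadjusted p under 0.05 and a median of -0.34. With the skeletal muscle score in the fit 2 were called toward AKR and 1 toward 129X1. That score consists of these same genes, so the counts in that fit carry no information about them. None of 5 genes of nerve and Schwann cells was called, with 1 at an unadjusted p under 0.05. Alas2, the heme synthesis enzyme of red cell precursors, was 1 of 2 red cell genes measured and stood lower in AKR (5.41, 5.56, 4.78 and 4.88 against 6.55, 6.45, 6.35 and 5.99, adjusted p = 0.0011). Complement genes, made by stromal cells among others, were lower in AKR in 3 of 8 cases, with a median of -0.44. They were Serping1, the C1 inhibitor (-1.04, SE 0.14, adjusted p = 2.3e-05), C1s1 (-1.03, SE 0.17, adjusted p = 0.00023) and C1ra (-0.73, SE 0.17, adjusted p = 0.0057), the proteases it inhibits.

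**Figure D5:**
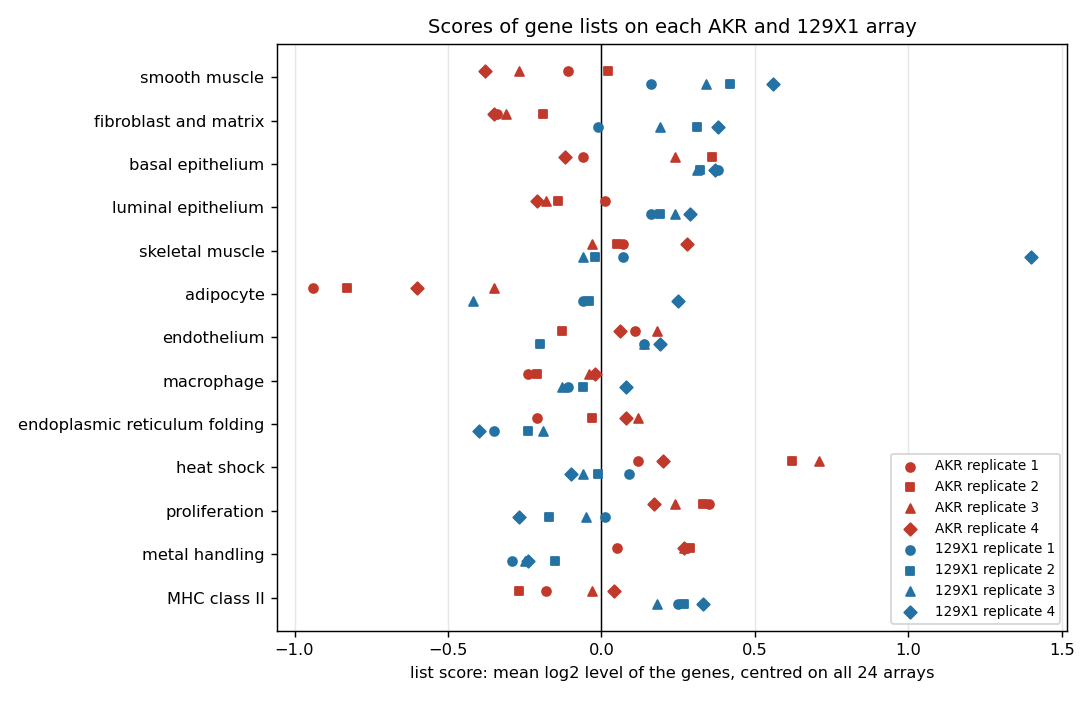
Each symbol is the score of a gene list, its mean log2 level centred on all 24 arrays, on 1 of the 4 AKR (red) or 4 129X1 (blue) arrays, with the symbol giving the replicate number. Smooth muscle and fibroblast scores are lower on every AKR array than on any 129X1 array, heat shock scores are highest in AKR replicates 2 and 3, and 129X1 replicate 4 stands apart at 1.40 in the skeletal muscle score.

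Cell cycle genes that were called were all higher in AKR. Of 23 measured, 8 were higher in AKR and none in 129X1, with a median of 0.36, and 12 had an unadjusted p under 0.05. Cdk1, the kinase that drives mitosis, read 6.68, 7.10, 6.53 and 6.87 in AKR and 5.86, 4.63, 5.87 and 5.71 in 129X1 (difference 1.28, SE 0.24, 2.42-fold, adjusted p = 0.00074). All AKR arrays were above all 129X1 arrays, of which replicate 2 was the lowest. Mcm6 and Mcm7, subunits of the replicative helicase, differed by 0.98 and 0.51, Rrm1 and Rrm2, subunits of ribonucleotide reductase, by 0.34 and 0.50, Top2a, which untangles DNA, by 0.69, Mki67, a proliferation antigen, by 0.66, and Stmn1, a microtubule destabiliser, by 0.62.

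The proliferation count moved with many settings. It was 3 with only the 8 arrays in the fit and with the adipocyte score in the fit, and 1 with the smooth muscle score in the fit. With single arrays left out it was 5, 4 and 5 without AKR replicate 1, 2 or 3, 3 without 129X1 replicate 2 and 2 without 129X1 replicate 4. Cdk1 was called under every alternative in which it was tested. The score itself was between 0.17 and 0.35 in AKR and between -0.27 and 0.01 in 129X1.

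Enzymes of glutathione and detoxification were divided. Of 30 measured, 7 were higher in AKR and 5 in 129X1, with a median of -0.03. Of 14 glutathione transferases, which join glutathione to reactive compounds, 4 were higher in 129X1 and 2 in AKR (median -0.15), and of 16 peroxidases and redox genes 1 was higher in 129X1 and 5 in AKR (median 0.13). The difference between these groups was not tested. Beside Mgst1, Gsto1, an omega class transferase, read 7.38, 7.35, 7.64 and 6.95 in AKR and 8.83, 8.80, 9.12 and 9.08 in 129X1 (difference -1.63, SE 0.12, 3.09-fold, adjusted p = 1.7e-09), and both of its probe sets were called. Gstk1, a mitochondrial and peroxisomal transferase, differed by -1.05 (SE 0.10, adjusted p = 1.7e-07) and Gstm5 by -0.34 (SE 0.11, adjusted p = 0.049), whereas Gsta4, which clears lipid aldehydes, and Mgst3 were 0.78 and 0.41 higher in AKR. Beside Gpx3, Gpx2, the intestinal peroxidase, differed by 1.03 (SE 0.29, adjusted p = 0.025) and Txnrd1, thioredoxin reductase, by 0.46 (SE 0.14, adjusted p = 0.037).

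Glo1, which detoxifies methylglyoxal and is known to be duplicated in some inbred strains, read 9.32, 9.30, 9.54 and 9.03 in AKR and 8.05, 8.30, 8.10 and 8.27 in 129X1 (difference 1.11, SE 0.15, 2.16-fold, adjusted p = 2.6e-05). All 3 probe sets were called, and the other 4 strains lay at 8.11 to 8.41 with 129X1. Sod1, cytosolic superoxide dismutase, read 10.78, 9.82, 11.47 and 11.43 against 9.74, 9.75, 10.09 and 9.85 (difference 1.02, SE 0.28, adjusted p = 0.02), with AKR replicate 2 inside the 129X1 range and 1 of 2 probe sets called. The count toward AKR was 4 with only the 8 arrays in the fit, 4 without AKR replicate 1 or 129X1 replicate 2, and 3 without AKR replicate 3 or with the smooth muscle score in the fit.

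Around Tac1, 9 genes that make, trim, break down or receive substance P were measured. Pam, which amidates the peptide, differed in the same direction as Tac1, reading 7.41, 6.48, 7.17 and 7.27 in AKR and 8.56, 8.64, 8.67 and 8.33 in 129X1 (difference -1.47, SE 0.17, 2.77-fold, adjusted p = 2.3e-06). 129X1 was the highest of the 6 strains for Pam, the other 4 lying at 6.97 to 7.44 with AKR. Mme, neprilysin, which degrades the peptide, was higher in AKR (10.69 to 11.14 against 9.74 to 10.17, difference 0.95, SE 0.13, 1.93-fold, adjusted p = 3.1e-05), as was Ace, another peptidase that can cleave it (0.55, SE 0.11, adjusted p = 0.0021). A fainter probe set of Ace differed by 0.19 and was not called. Pcsk1, Cpe, Ece1, Dpp4 and the receptor gene Tacr2 were not called and differed by -0.19 to 0.36.

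O-glycans are sugar chains on serine and threonine that give mucins their bulk. Of 21 measured enzymes of O-glycans and of terminal sugars, some of which act on glycolipids, 4 were higher in AKR and 3 in 129X1, with a median of 0.16. Galnt16, described above, was not in this group. Beside the sialyltransferases described above, Galnt2, which starts the chains, read 6.27, 6.89, 6.90 and 6.54 in AKR and 8.22, 7.69, 8.23 and 7.80 in 129X1 (difference -1.34, SE 0.16, 2.52-fold, adjusted p = 4e-06), with 2 of 3 probe sets called. Galnt10, of the same family, was 0.63 higher in AKR (SE 0.16, adjusted p = 0.012) and B4galnt1, which makes gangliosides, 0.38 higher (SE 0.12, adjusted p = 0.033). St6galnac2 was thus higher in 129X1 while St6galnac4 and St6galnac6 were higher in AKR. Without AKR replicate 1, or with the smooth muscle score in the fit, the count toward AKR was 2.

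Of 12 measured genes reported to differ by allele between inbred strains, 4 were called (median -0.16), beside 11.3% of all genes. Beside Glo1 and Pam these were Gbp2b and Ahr. Gbp2b, an interferon-induced GTPase, read 5.96, 5.43, 5.26 and 5.42 in AKR and 6.82, 6.40, 6.80 and 6.50 in 129X1 (difference -1.11, SE 0.20, adjusted p = 0.00045). Ahr, the receptor for dioxin, whose alleles differ in ligand affinity, stood at 5.57 to 6.10 against 6.39 to 6.63 at its brightest probe set (difference -0.75, SE 0.16, adjusted p = 0.0028). Its other probe set differed by 0.30 and was not called. Nnt, a mitochondrial transhydrogenase known to be defective in C57BL/6J, stood at 8.31 to 8.92 in AKR and 8.28 to 8.47 in 129X1 and was not called. Of 7 measured genes of the Ly6 family and prostate progenitor markers, Psca was higher in 129X1 and Prom1, a membrane protein of progenitor and luminal cells, higher in AKR (6.33, 7.09, 7.54 and 6.81 against 5.98, 5.64, 5.48 and 6.11, difference 1.14, SE 0.22, adjusted p = 0.0011).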

How the data were processed

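Total RNA from ventral prostate was measured on 24 arrays, 4 per strain, of which the 8 of AKR and 129X1 are compared. The deposited values are intensities on a linear scale, and MAS5 is the tool in the submitters' processing notes, its version and settings not being given in the sources used here. Every deposited column had a mean of 143, but the 2% trimmed means ran from 91.4 to 105, so arrays were brought to a common trimmed mean of 98.7. The log2 of that value plus 16 was analysed. The table held 22690 probe sets. Controls (64) and probe sets that were above their array's 40th percentile on fewer than 4 arrays (6851) were not tested. The platform annotation gave 1 gene symbol for 20393 probe sets, several for 691 and none for 1606, and only those with 1 were named. RefSeq on GRCm38.p6 held 20364 of them and supplied the gene order.

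Tests used limma 3.58.1 (R 4.3.3). The model had a mean for each of the 6 strains over all 24 arrays, with 18 residual degrees of freedom and empirical Bayes moderation, and two-sided p values were adjusted over 15775 probe sets. The fit was tested on simulated data. Named genes are the 15 with the largest difference in each direction among called genes whose groups did not overlap, the members of 37 gene lists (528 of 693 genes measured), and neighbouring genes called at 2-fold in runs of 3. The members and lists were chosen with earlier results of these data known. Only promoter windows present in the RefSeq table were searched for motifs. The alternatives were the samples in the fit, the constant added, the scaling, the filter, an intensity trend, the replicate number as a block, scores of skeletal muscle, adipocyte or smooth muscle genes as covariates, and each array left out. Same-numbered AKR and 129X1 arrays had correlations of 0.031 to 0.058 between their deviations from the strain means, so the numbers were not treated as pairs. The labels call the arrays biological replicates but do not say whether animals were pooled. With arrays there is no count depth, and precision is limited by how many there are.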

Additional observations from a re-analysis of the deposited data

Results flagged for a closer look

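Among 128 series of 4 values (30 named genes and 34 list scores in each strain), 7 had 1 array far from the other 3 by Dixon's criterion for 4 values at the 95% level, and chance gives about 1 in 20. The skeletal muscle score was 1.40 in 129X1 replicate 4 and -0.06 to 0.07 in the other 3 129X1 arrays. The metal handling score was 0.05 in AKR replicate 1 and 0.27 to 0.29 in the others. Mt3 and Slc30a2, members of that score, were low on this array, and without both of them, left out after their values were seen, AKR replicate 1 had a score of 0.15 and the others 0.01 to 0.07. The endothelium score was -0.20 in 129X1 replicate 2 and 0.14 to 0.19 in the others, and the score of prostate cancer genes was 0.15 in 129X1 replicate 1 and 0.01 to 0.03 in the others. Of single genes, Smpdl3a read 8.19 on the highest AKR array and 7.94 to 7.98 on the others, Tmem45a 7.29 on the highest 129X1 array and 6.85 to 6.91 on the others, and BC018473 4.30 on the highest AKR array and 4.06 to 4.08 on the others.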

How the results depend on the processing

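The count of 1795 probe sets called was 1136 with only the 8 AKR and 129X1 arrays in the fit and 636 with each array's smooth muscle score as a covariate, and ran from 1291 (without AKR replicate 3) to 1967 (without AKR replicate 2) with single arrays left out. The fit to 8 arrays has fewer arrays to estimate the spread, and the smooth muscle score itself differed between the strains. The count at 2-fold or more, 304, was 114 with a constant of 64 before the log and 472 with a constant of 1, which compress and stretch the folds of faint probe sets by construction, and ran from 289 to 365 with single arrays left out. With the replicate number as a block in the fit, the counts were 1745 and 301. Among the named genes and list members that were called, none changed direction under an alternative. Changes of direction in genes that were not called were not counted. Of the 30 genes with the largest differences, 29 were called under every alternative in which they were tested, the exception being Fxyd1. With the 60th percentile as the filter only 28 of the 30 were tested. Of 123 called list members, 48 were called under every alternative in which they were tested, and 74 were not called once the smooth muscle score was in the fit. The number of arrays limits the precision, and folds against a group near an intensity of 0 have no upper bound here.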

Other observations

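Some gene groups with fewer differences are given here as values. In amino acid stress 2 of 15 measured genes were higher in AKR and 1 in 129X1 (median 0.32). Nupr1, a small stress-induced chromatin protein, read 10.54, 10.17, 10.69 and 10.78 in AKR and 9.63, 9.61, 10.01 and 9.13 in 129X1 (difference 0.95, SE 0.20, adjusted p = 0.0027 by limma). Aldh18a1, which starts proline synthesis, differed by 0.48, and Asns, asparagine synthetase, by -0.33, each at its brightest probe set. The fainter probe sets of both genes were not called. None of these counts held with the smooth muscle score in the fit. In polyamine synthesis and methionine salvage 2 of 12 were higher in AKR. Adi1, a dioxygenase of methionine salvage, read 8.65, 8.48, 8.66 and 8.70 against 7.26, 7.32, 7.77 and 7.49 (difference 1.16, SE 0.16, adjusted p = 3.1e-05), with 2 of 3 probe sets called, and Srm, spermidine synthase, differed by 0.37. Among 15 measured growth control genes (median -0.19), 3 were higher in AKR and 2 in 129X1. Those toward AKR were Cdkn1a, the p21 inhibitor of cyclin kinases (0.64, adjusted p = 0.032), Btg2 (0.55, adjusted p = 0.014) and Btg1 (0.27, adjusted p = 0.049). Fainter probe sets of Btg2 and Btg1 differed by 0.11 and -0.05 and were not called. Those toward 129X1 were Gas1 (-0.79, adjusted p = 0.013) and Gadd45g (-0.74, adjusted p = 0.0067). With only the 8 arrays in the fit 1 was called toward AKR and 4 toward 129X1, and with the smooth muscle score in it none was called in either direction. The count toward AKR was 0 without AKR replicate 4 and 1 without AKR replicate 3 or 129X1 replicate 1, 2 or 4, and that toward 129X1 was 1 without AKR replicate 4.

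Groups that serve every cell were near the background of 11.3%. In the respiratory chain 3 of 33 genes were called (median 0.03), Ndufa5 and Ndufs3 of complex I at -0.49 and -0.45 and Uqcrfs1 of complex III at 0.51. Of 17 cytosolic ribosomal protein genes, Rps6 was 0.93 higher in AKR (adjusted p = 0.00026) and Rpl13a lower (-0.40, adjusted p = 0.022). Of 20 genes of cholesterol synthesis, Cyp51 and Nsdhl were 0.54 and 0.36 higher in AKR, and of 12 of fatty acid synthesis Fads1, a desaturase, was lower (-0.48, adjusted p = 0.043). Of 21 tumour suppressors and oncogenes of prostate cancer, the receptor gene Igf1r was 0.56 higher in AKR (adjusted p = 0.01) and the receptor gene Erbb2 lower (-0.61, adjusted p = 0.013), and none of the 10 suppressors was called by limma, with 4 at an unadjusted p under 0.05. Of 19 immediate early genes, Klf4 was lower in AKR (-0.42, adjusted p = 0.0076) and Btg2 higher at its brightest probe set.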
